A study of Mus musculus with 36 samples.

Results

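The genes described here are the chains of the laminins, the trimeric glycoproteins of basement membranes, and the chains of the integrins, the receptors through which cells hold on to laminins and other matrix proteins. They were taken from the series' table of 22761 genes as every protein-coding gene whose name is that of a laminin alpha, beta or gamma chain or of an integrin alpha or beta chain, which gave 36 genes: 11 laminin chains and 25 integrin chains (17 alpha and 8 beta). The table lists no *Itgad*, which was not analysed here. Levels were not used to choose the genes, but *Itga8* is a special case, since the ITGA8 protein was used to sort nephron progenitors from stromal progenitors. Its RNA difference between those cells follows from the sort and is given as a description.

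The series holds 36 mouse RNA sequencing libraries of the 3 progenitor types of the developing kidney, the ureteric bud (UB), the nephron progenitor (NP) and the stromal progenitor (SP), in 9 groups of 4. Ex-fetu cells came from CD1 kidneys at E11.5 and at E12.5 with the ureter taken off, and were sorted as RET+/EpCAM+ (UB), ITGA8 high/PDGFRA low (NP) or ITGA8 low/PDGFRA high (SP), the last 2 after CD31+ and EpCAM+ or RET+ cells had been gated out. All embryos of 1 mouse gave their kidneys to 1 pooled ex-fetu sample. ES-derived cells were iNP and iSP, which were differentiated as embryoid bodies from E14 mouse ES cells (mESC) and sorted by the same ITGA8 and PDGFRA gates, and eUB (named iUB in the labels), which came from a reporter mESC line called *Sox9-mCherry* in the labels (other passages of the study's text name *Sox8-mCherry*) and were sorted as EpCAM+/mCherry+. Each of these samples pooled the embryoid bodies of 1 differentiation batch. From a step before its last ones, the eUB medium held growth factor reduced Matrigel, a laminin-rich extract of mouse basement membrane. With it went Y27632, retinoic acid and CHIR99021, and GDNF in the later steps. The iNP and iSP medium held no Matrigel, so that cell line, medium and cell type cannot be told apart between eUB and either of them. The labels disagree on the stage of the ex-fetu UB cells, since the cell source of those with E11.5 in the title is E12.5, and the reverse. The titles were used.

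Laminins are secreted as trimers of 1 alpha, 1 beta and 1 gamma chain. Laminin-111 (*Lama1*, *Lamb1*, *Lamc1*) is the laminin of early epithelia, and laminin-511 (*Lama5*, *Lamb1*, *Lamc1*) takes its place in most epithelial basement membranes as they mature. Integrins are pairs of 1 alpha and 1 beta chain: α3β1, α6β1, α7β1 and α6β4 bind laminins, α1β1, α2β1, α10β1 and α11β1 bind collagens, and α5β1, α8β1 and the αv integrins bind ligands with an RGD sequence. In the kidney, α8β1 on the metanephric mesenchyme and its ligand nephronectin (*Npnt*), which the ureteric bud makes, are needed for the bud to grow into the mesenchyme.

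Levels are deposited values, for which the authors divided CPM by factors from edgeR (normalised CPM in what follows). The libraries held 13.0 to 52.5 M reads counted on genes (median 27.4 M), and 3 reads, taken as the limit of detection, amounted to 0.0605 to 0.223 normalised CPM. Differences are in log2(normalised CPM + 1), a scale that understates the change of genes with low levels. A gene was tested where it reached 1 in at least 4 of the libraries compared, and called where its adjusted p-value (limma, Benjamini-Hochberg over all genes tested) was under 0.05. Log2 differences are given ± SE and levels as the mean ± SD of the 4 libraries of a group. In pools of cells, fewer cells of a type and less RNA per cell cannot be told apart. The sorted types carried their markers: the summed level of 10 UB markers was 4364 to 4685 in E11.5 UB and 3314 to 3746 in eUB libraries, against at most 334 in any NP or SP library. The 10 NP markers summed to 2226 to 2552 in E11.5 NP and 985 to 1504 in iNP libraries, and the 10 SP markers to 4535 to 6921 in E11.5 SP and 4088 to 4287 in iSP libraries. In other types the NP markers summed to 315 to 339 (E11.5 SP), 461 to 531 (E11.5 UB), 473 to 537 (iSP) and 434 to 568 (eUB). The SP markers summed to 363 to 401 (E11.5 NP), 78.8 to 99.8 (E11.5 UB), 704 to 1009 (iNP) and 92.8 to 136 (eUB). The lists hold genes of sorted proteins (*Ret* and *Epcam*, *Itga8*, *Pdgfra*), so that part of each sum follows from the sort. Single defining genes were lower in ES-derived cells: *Six2* was at 116 to 152 in iNP against 557 to 641 in E11.5 NP, and *Foxd1* at 11.4 to 19.2 in iSP against 265 to 563 in E11.5 SP.

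Some libraries stood apart from their group. In E12.5 UB library 1 the SP markers summed to 842, against 57.5, 60.1 and 92.0 in libraries 2 to 4, the endothelial markers to 114 against 4.12, 6.81 and 7.73, and the pluripotency markers to 15.6 against at most 0.663 in the others. Its *Itga8* level was 73.7, against 2.37, 1.46 and 1.93. In iNP library 2, 7 of the 28 members that reached 1 in the group were under 50% of the lowest of the other libraries. E11.5 SP library 4, E12.5 SP library 1 and eUB library 1 had the lowest mean correlation with the other libraries of their groups over all genes, and eUB library 1 had the fewest reads of all libraries. Counts and values that rest most on these libraries are also given without them. Without a library, a member that reaches 1 only in the group it left may have too few libraries to be tested. E12.5 NP libraries 1 and 2 had lower mean correlations with their group (0.974 and 0.976) than E11.5 SP library 4 (0.979) and eUB library 1 (0.980). The NP markers summed to 2147 in E12.5 NP library 1, against 3323, 3335 and 3458 in libraries 2 to 4.

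**Figure D1:**
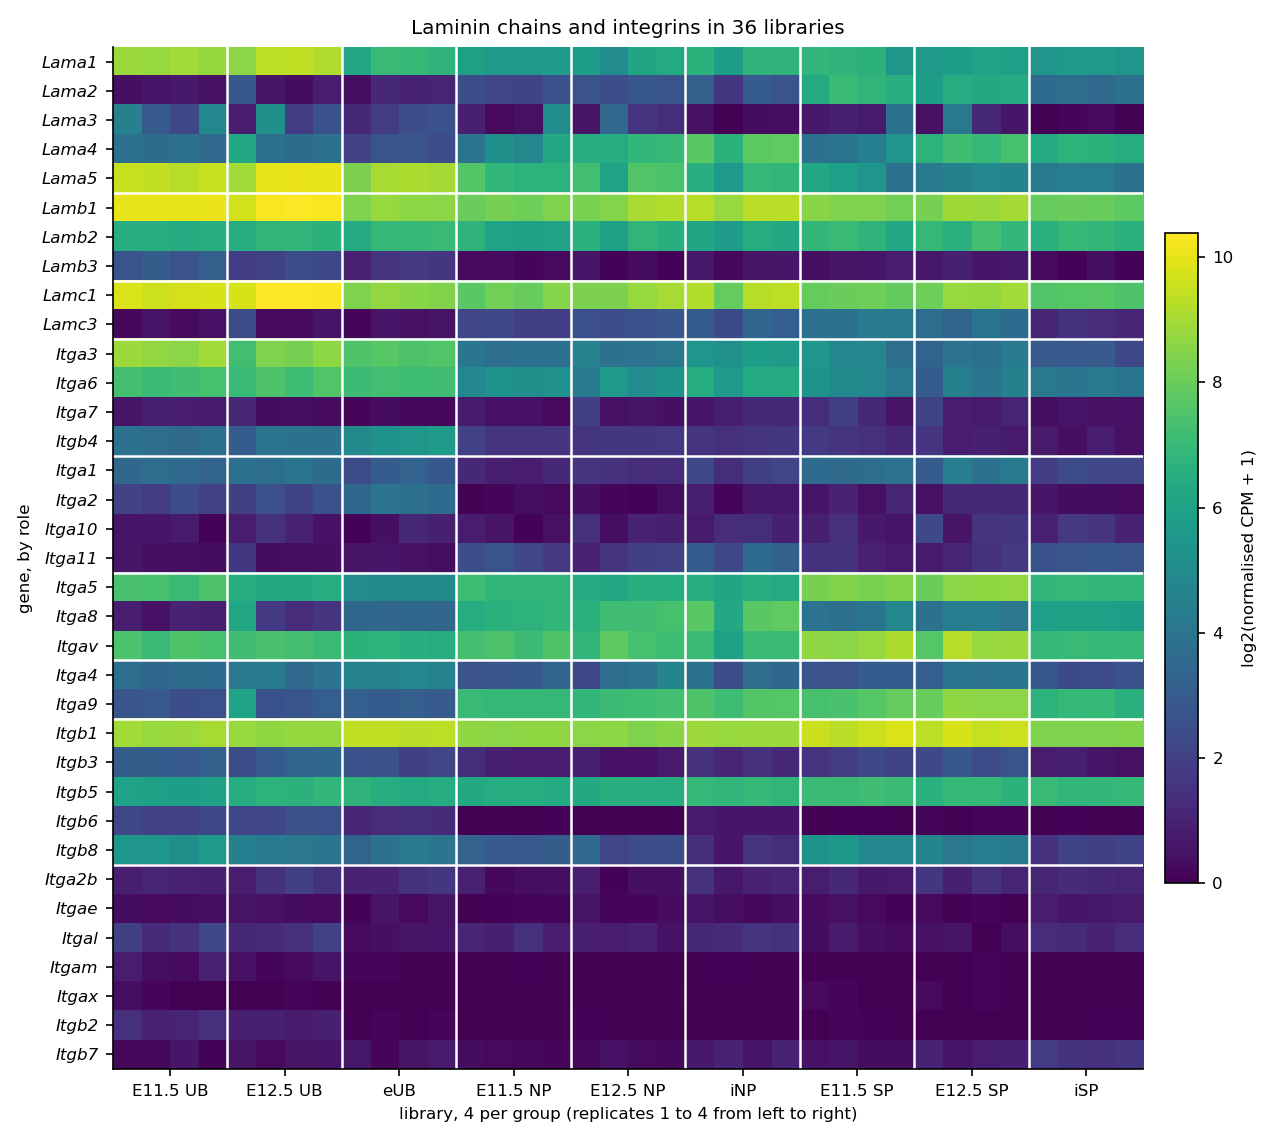
Level of 35 laminin and integrin chains in each of the 36 libraries as log2(normalised CPM + 1), with genes in rows by role and 4 libraries per group in columns. *Lama1* is brightest in the columns of the ex-fetu ureteric bud, *Itga3* in those of all 3 UB groups, *Lama2* in the stromal columns, and *Lama3* is uneven among the libraries of an ex-fetu group.

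Among ex-fetu cells at E11.5, the ureteric bud was the type with the most RNA of the laminin chains of epithelia. *Lama1*, *Lama5*, *Lamb1* and *Lamc1*, and the laminin receptor chains *Itga3* and *Itga6*, were higher in UB than in NP and in SP cells. Stromal progenitors had the most *Lama2* and *Lamc3*, and with them the RGD receptor chains *Itgav* and *Itga5*. Between E11.5 UB and E11.5 NP, 25 of the 28 members that passed the filter were called, 18 higher and 7 lower in UB, beside 60.2% of all genes tested (28.7% higher and 31.5% lower). Between E11.5 UB and E11.5 SP, 24 of the 27 members that passed the filter were called, 15 higher and 9 lower in UB, beside 53.6% of all genes tested (26.8% higher and 26.7% lower). Between E11.5 NP and E11.5 SP, 15 of the 23 members that passed the filter were called, 3 higher and 12 lower in NP, beside 43.1% of all genes tested (21.0% higher and 22.2% lower). Without E11.5 SP library 4, 22 members were called between UB and SP and 16 between NP and SP. Counts of this kind are given with the share of all tested genes called, since a member that passed the filter on low levels only through the group where it was high had to differ. This holds here for *Itga2*, *Itga8*, *Itga11*, *Itgal*, *Itgb6*, *Lama2*, *Lamb3* and *Lamc3*, which stayed under 1 in every library of a group they were compared with at E11.5, and their differences are a description. Wherever a member or other gene stayed under 1 in every library of 1 of the groups compared, its log2 difference is given without a p-value. Shares of all genes tested are those of fits with all libraries of the groups compared and no block. They are not the shares of counts given without a library or under another setting.

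Laminin alpha chains carry the domains that integrins bind. *Lama1*, the alpha chain of laminin-111, was at 459.9, 439, 494 and 424 normalised CPM in the 4 E11.5 UB libraries, 58.6, 47.2, 46.4 and 50.6 in NP and 112, 107, 102 and 43.8 in SP. No UB library overlapped with those of the other types, and the level in UB was 8.96-fold that in NP (log2 difference 3.14 ± 0.08, adjusted p = 1.1e-11) and 4.98-fold that in SP (2.39 ± 0.26, adjusted p = 2.3e-05). *Lama5*, the alpha chain of laminin-511, was at 739.6, 685, 614 and 739 in UB, 196, 118, 106 and 104 in NP and 73.4, 57.8, 42.7 and 13.97 in SP. The 3 types followed in this order without overlap, with a log2 difference of 4.08 ± 0.41 (adjusted p = 1.2e-05) between UB and SP and 1.63 ± 0.44 (adjusted p = 0.015) between NP and SP. *Lama2*, the alpha chain of muscle and mesenchymal laminins, ran the other way, at 79.8, 125, 111 and 90.6 in SP, 4.68, 3.46, 3.33 and 5.16 in NP and 0.355, 0.523, 0.642 and 0.391 in UB. Its log2 difference was -6.10 ± 0.15 between UB and SP and -4.31 ± 0.17 (adjusted p = 2.0e-07) between NP and SP. *Lama4*, best known from vessel walls, was lower in UB (mean 12.1 ± 1.13) than in NP (38.6 ± 26.2) and SP (22.9 ± 12.6), where its libraries spread widely. Between UB and SP its log2 difference was -0.74 ± 0.28 (adjusted p = 0.048), or -0.42 ± 0.15 (adjusted p = 0.032) without E11.5 SP library 4. That call was lost without any 1 E11.5 UB library or E11.5 SP library 3 (adjusted p = 0.077 to 0.11), and with all 36 libraries in 1 fit, upper-quartile scaling, no filter or the replicate block (adjusted p = 0.054 to 0.14).

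Among the other chains, *Lamb1* and *Lamc1*, shared by most laminins, were 3.66-fold and 3.04-fold higher in UB than in NP, at means of 1065 ± 11.8 and 846 ± 49.5 normalised CPM in UB (log2 differences 1.87 ± 0.08, adjusted p = 9.0e-10 and 1.62 ± 0.13, adjusted p = 2.7e-07). *Lamb2* was not called in any of the 3 comparisons of types at E11.5, but without E11.5 SP library 4 it was lower in UB (-0.43 ± 0.09, adjusted p = 0.0025) and in NP (-0.71 ± 0.18, adjusted p = 0.011) than in SP. *Lamb3* and *Lama3*, chains of epithelial laminins, were low even in UB. *Lamb3* was at 5.55, 7.44, 5.29 and 7.89 in UB and at most 0.728 in the NP and SP libraries, and *Lama3* at 22.02, 6.63, 3.78 and 27.98 in UB. *Lamc3* was at 13.7, 14.3, 18.9 and 17.7 in SP, 3.58, 3.86, 2.81 and 2.84 in NP and 0.161, 0.523, 0.227 and 0.427 in UB, where it did not reach 1 in any library.

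Genes of chains described in detail here lie in the genome (GRCm38) as follows: *Lama1* at chr17:67697259-67822647, *Lama2* at chr10:26980036-27619758, *Lama4* at chr10:38965515-39110188, *Lama5* at chr2:180176373-180225859, *Lamb1* at chr12:31265234-31329644, *Itga3* at chr11:95044474-95076801, *Itgb8* at chr12:119158022-119238802 and *Itga8* at chr2:12106632-12301922. *Lama2* and *Lama4* share chromosome 10, *Lamb1* and *Itgb8* chromosome 12, and *Lama5* and *Itga8* chromosome 2. Reads of all exons of a gene were counted together, so that no isoform can be told from these values.

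Levels of different chains were compared per kb of exon. Of the summed alpha chain level per kb, *Lama5* made up 55.2% ± 3.14 and *Lama1* 42.6% ± 3.84 in E11.5 UB (mean ± SD of shares over 4 libraries), and *Lama2* 0.0267% ± 0.00829. In E11.5 NP *Lama5* again had the largest share, 54.8% ± 12.8, before *Lama1* with 25.4% ± 3.01. In E11.5 SP *Lama1* had 41.6% ± 9.01, *Lama2* 28.7% ± 6.07 and *Lama5* 17.7% ± 7.97. The alpha chain level summed to 110.3 ± 4.37 per kb in UB, 20.97 ± 4.05 in NP and 22.04 ± 4.14 in SP. A share can change because its own chain or another chain of the class changed, and shares are given without a test.

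Of the integrins, *Itgb1*, the beta chain that most alpha chains pair with, had the largest level per kb in every one of the 9 groups, from 82.3 ± 1.12 in iSP to 187 ± 24.95 in E11.5 SP. *Itga3*, which with *Itgb1* forms a receptor for laminin-511, was at 468, 416, 386 and 495 in E11.5 UB, 15.8, 12.4, 13.05 and 12.9 in NP and 42.2, 27.7, 27.1 and 12.5 in SP. This was 32.6-fold higher in UB than in NP (log2 difference 4.93 ± 0.09, adjusted p = 1.1e-12), with no overlap. *Itga6*, a laminin receptor chain of epithelia and stem cells, was 4.296-fold higher in UB than in NP, and *Itgb4*, which pairs with α6 in hemidesmosomes, 5.47-fold. The osteopontin and tenascin receptor chain *Itga9* was at 164, 171, 197 and 241 in SP and 132, 119, 119 and 120.0 in NP, against 5.91, 6.43, 4.61 and 4.73 in UB, a log2 difference of -4.91 ± 0.15 (adjusted p = 4.0e-09) from UB to SP. *Itgav* (mean 443 ± 73.4) and the fibronectin receptor chain *Itga5* (mean 327 ± 17.4) were 2.74-fold and 2.05-fold higher in SP than in UB.

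*Itga8* followed the sort. It was at 85.96, 98.6, 105 and 118 in E11.5 NP libraries, 14.5, 13.03, 15.3 and 28.1 in SP and 0.8396, 0.402, 0.982 and 0.818 in UB. In iNP it was at 212, 75.5, 209.8 and 230.1, in iSP at 56.7, 60.2, 59.2 and 56.1, and in eUB at 10.4, 9.76, 10.4 and 9.88. The iSP libraries, sorted for low ITGA8, thus lay above every ex-fetu SP library and below the ex-fetu NP libraries in *Itga8* RNA. The reads of *Itga8* and of the antisense gene *E030013I19Rik*, which overlaps its exons, can be told apart only if the counting used strand, which is not stated. The same holds for *Itga4* with the coding gene *Cerkl*, *Itgb4* with *B230344G16Rik* and *Lamc3* with *Gm13441*. *Npnt*, the α8β1 ligand, was at a mean of 423 ± 21.2 in E11.5 UB, 59.99 ± 9.57 in NP and 22.5 ± 11.1 in SP.

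ES-derived ureteric bud cells had less RNA of most laminin chains than the ex-fetu ureteric bud and a changed set of integrin chains. The alpha chain *Lama1* and the fibronectin receptor chain *Itga5* were among the members that were lower by the most, and *Itga8*, *Itga2*, *Itgb4* and *Itga4* were higher by over 1 on the log2 scale. Between eUB and E11.5 UB, 24 of the 26 members that passed the filter were called, 8 higher and 16 lower in eUB, beside 60.5% of all genes tested (32.1% higher and 28.5% lower). Of the laminin chains tested, 8 of 9 were lower and 1 was higher, with a median log2 difference of -1.41, beside 0.0247 over all 13956 genes tested.

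*Lama1* was at 71.95, 129.9, 123 and 106 in the eUB libraries, 4.21-fold lower than in E11.5 UB (log2 difference -2.10 ± 0.16, adjusted p = 4.0e-06). The groups did not overlap. *Lamb1* was at 334, 443, 392 and 382 in eUB and 1068, 1069, 1047 and 1074 in E11.5 UB (-1.46 ± 0.09, adjusted p = 8.9e-07). *Lamc1* was at 331, 422, 373 and 344 against 882, 774, 853 and 874 (-1.20 ± 0.09, adjusted p = 3.3e-06). So the 3 chains of laminin-111 were all lower in eUB without overlap, with the largest log2 difference for *Lama1*. *Lama5*, at 325, 523, 553 and 503, was lower by less (-0.57 ± 0.16, adjusted p = 0.011), and its share of the alpha chain level per kb was 77.9% ± 1.07 in eUB, against 55.2% ± 3.14 in E11.5 UB. *Lamb2* was higher by 0.35 with overlapping libraries, and its call was lost when any 1 library other than eUB library 1 was left out (adjusted p = 0.053 to 0.1) and with all 36 libraries in 1 fit (adjusted p = 0.12). *Lamb3* was at 1.04, 1.92, 2.32 and 2.16 (-1.41 ± 0.18, adjusted p = 0.00011) and *Lama4* at 3.04, 5.43, 5.54 and 4.18 against 13.2, 11.7, 12.9 and 10.8 (-1.27 ± 0.16, adjusted p = 9.0e-05), both without overlap. *Lama3*, at 1.26, 2.73, 4.47 and 5.13, overlapped with the uneven E11.5 UB libraries (-1.61 ± 0.56, adjusted p = 0.031). The call for *Lama3* was lost without E11.5 UB library 1 or 4 or eUB library 2 (adjusted p = 0.068 to 0.09). With all 36 libraries in 1 fit, it was lost too (adjusted p = 0.14), as was that for *Lama5* (adjusted p = 0.19).

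**Figure D2:**
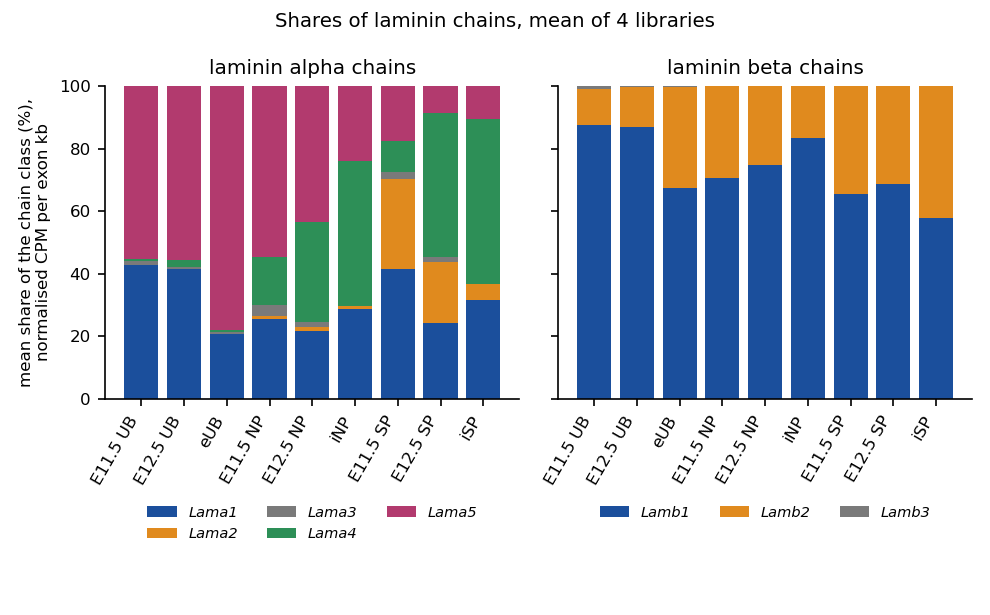
Mean share of each chain in the summed level of the laminin alpha and beta chains (normalised CPM per kb of exon, in percent) for the 9 groups, as stacked bars over 4 libraries each. *Lama5* takes the largest share of the alpha chains in UB groups and *Lama4* in iNP, iSP and E12.5 SP.

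The laminin receptor chains of the bud did not move as a group. *Itga3* was at 181, 206, 180.3 and 187 in eUB, 2.34-fold lower than in E11.5 UB and without overlap (-1.22 ± 0.09, adjusted p = 3.2e-06). *Itga6*, at 138, 149, 141 and 145 in eUB and 153, 136, 147 and 162 in E11.5 UB, was not called, with a log2 difference of -0.06 ± 0.07 (adjusted p = 0.49). *Itgb4* was at 30.1, 38.97, 42.3 and 50.4 against 13.7, 12.1, 10.95 and 13.4, 3.23-fold higher (1.60 ± 0.15, adjusted p = 1.1e-05). Both laminin receptor betas were thus higher, as *Itgb1* rose too (661 ± 24.5 against 481 ± 32.1, 0.46 ± 0.07, adjusted p = 0.00042). The collagen receptor chain *Itga2* was at 10.02, 14.7, 13.3 and 11.3 in eUB and 3.33, 2.49, 4.34 and 3.06 in E11.5 UB (1.63 ± 0.16, adjusted p = 1.5e-05), whereas *Itga1*, which binds collagen as well, was lower. *Itga4*, a fibronectin and VCAM1 receptor chain, was at 23.8, 24.1, 27.1 and 23.8 against 12.3, 10.4, 11.8 and 11.5 (1.04 ± 0.09, adjusted p = 6.3e-06). *Itga8* was 13.3-fold higher in eUB (2.67 ± 0.13), although all its eUB values were under those of the ex-fetu SP libraries.

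Among RGD receptors, *Itga5* was at 31.3, 30.2, 30.6 and 29.99 in eUB and 167, 163, 128 and 179 in E11.5 UB, 5.21-fold lower (-2.33 ± 0.10, adjusted p = 1.0e-07). *Itgb8*, which pairs with αv to release TGF-β from its latent form, was at 9.21, 14.2, 18.1 and 15.7 against 43.1, 42.6, 34.1 and 47.1 (-1.51 ± 0.18, adjusted p = 7.0e-05). Neither overlapped. *Itgav*, *Itgb3* and the epithelial chain *Itgb6* were lower by under 1, and *Itgb5* higher. Against E12.5 UB, 17 of the 27 members that passed the filter were called, 4 higher and 13 lower in eUB, beside 44.4% of all genes tested (23.3% higher and 21.2% lower). Without E12.5 UB library 1 the count was 18, and *Itga8* (log2 difference 1.94 ± 0.13, adjusted p = 1.0e-05) and *Itga3* (-0.85 ± 0.10, adjusted p = 0.00022) were called as well. *Itgb8* was not called against E12.5 UB (-0.34 ± 0.19, adjusted p = 0.18).

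Nephron progenitors derived from ES cells had more RNA of several laminin chains than those of E11.5 kidneys, and fewer of these chains differed from E12.5. The laminin chains *Lama4* and *Lamb1* and the laminin receptor chains *Itga3* and *Itga6* were higher in iNP than in E11.5 NP, and *Itgb8* was the only member lower by 1 or more. Between iNP and E11.5 NP, 14 of the 24 members that passed the filter were called, 12 higher and 2 lower in iNP, beside 64.7% of all genes tested (35.5% higher and 29.2% lower). The median log2 difference of the 9 laminin chains tested was 0.84, beside 0.0738 over all 14064 genes. Without iNP library 2, 19 members were called, among them *Itga8* (1.09 ± 0.10, adjusted p = 4.9e-06), *Itga4* (0.77 ± 0.18, adjusted p = 0.0029), *Lama2* (0.60 ± 0.16, adjusted p = 0.0065) and *Itgb1* (0.20 ± 0.05, adjusted p = 0.0044) as higher and *Itgav* (-0.30 ± 0.09, adjusted p = 0.017) as lower. With upper-quartile scaling, which moved the median of all genes to 0.246, 18 members were called, and 66.4% of all genes called were higher in iNP, against 54.9% otherwise.

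*Lama4* was at 211, 101, 219 and 228 in iNP against 14.8, 36.6, 27.4 and 75.6 in E11.5 NP, 4.92-fold higher without overlap (2.43 ± 0.44, adjusted p = 0.00085). Its share of the alpha chain level per kb was 46.3% ± 1.15 in iNP, 31.96% ± 6.399 in E12.5 NP and 15.3% ± 8.73 in E11.5 NP, while that of *Lama5* was 24.05% ± 1.86, 43.5% ± 7.99 and 54.8% ± 12.8. The summed level of 8 endothelial markers was 65.9 to 118 in iNP libraries and 10.5 to 33.5 in E11.5 NP libraries, and its part in the *Lama4* difference was not tested. *Lamb1* was at 609.6, 445, 642 and 639 against 255, 305, 271 and 334 (0.99 ± 0.14, adjusted p = 0.00018). *Lamc1* (0.84 ± 0.30, adjusted p = 0.031) and *Lama1* (0.81 ± 0.20, adjusted p = 0.0057) were higher too, each with iNP library 2 inside the range of E11.5 NP. Without that library the log2 differences were 1.17 ± 0.14 (adjusted p = 4.4e-05) and 1.04 ± 0.08 (adjusted p = 2.7e-06). The call for *Lamc1* was lost without E11.5 NP library 1, 2 or 3 or iNP library 1, 3 or 4 (adjusted p = 0.056 to 0.091).

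*Itga3* was at 43.5, 37.02, 53.5 and 51.2 in iNP, 3.42-fold its E11.5 NP level (1.69 ± 0.14, adjusted p = 5.2e-06), and *Itga6* was at 84.3, 46.4, 81.4 and 82.1 in iNP against 28.1, 38.6, 35.3 and 37.2 in E11.5 NP (1.03 ± 0.19, adjusted p = 0.0011). Neither overlapped, and both iNP means stayed under those of any UB group. Markers of the other types moved with these chains and with *Lama1* and *Lamb1*: the 10 UB markers summed to 169 to 175 in iNP and 60.7 to 74.5 in E11.5 NP libraries (9 of them with a mean of at least 1 in each group), and the 10 SP markers to 704 to 1009 and 363 to 401 (9 and 10 of them). Their part in these differences was not tested. *Itgb8* was at 1.55, 0.557, 1.93 and 1.55 in iNP against 8.73, 6.92, 6.61 and 7.38 in E11.5 NP (-1.84 ± 0.19, adjusted p = 2.6e-05). With all libraries, *Itgb1* and *Itgav* were not called (0.18 ± 0.07, adjusted p = 0.052 and -0.58 ± 0.24, adjusted p = 0.061). Against E12.5 NP, 9 of the 25 members that passed the filter were called, 8 higher and 1 lower in iNP, beside 44.3% of all genes tested (25.6% higher and 18.7% lower). Without iNP library 2 the count was 14. With upper-quartile scaling the share of higher among all genes called was 69.9%, against 57.7%. *Itga3* (1.40 ± 0.19, adjusted p = 0.00025) and *Itgb8* (-1.44 ± 0.30, adjusted p = 0.0034) were called against this stage also, and *Lamb1* was not (0.42 ± 0.22, adjusted p = 0.14). Of the 9 laminin chains tested against it, 2 were higher and 0 lower, with 0 called at a size of 1 or more. *Lama4* was called as higher (0.80), but not with all 36 libraries in 1 fit (adjusted p = 0.098). Its call was also lost without E12.5 NP library 1 or 2 or iNP library 1, 3 or 4 (adjusted p = 0.0664 to 0.0845).

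**Figure D3:**
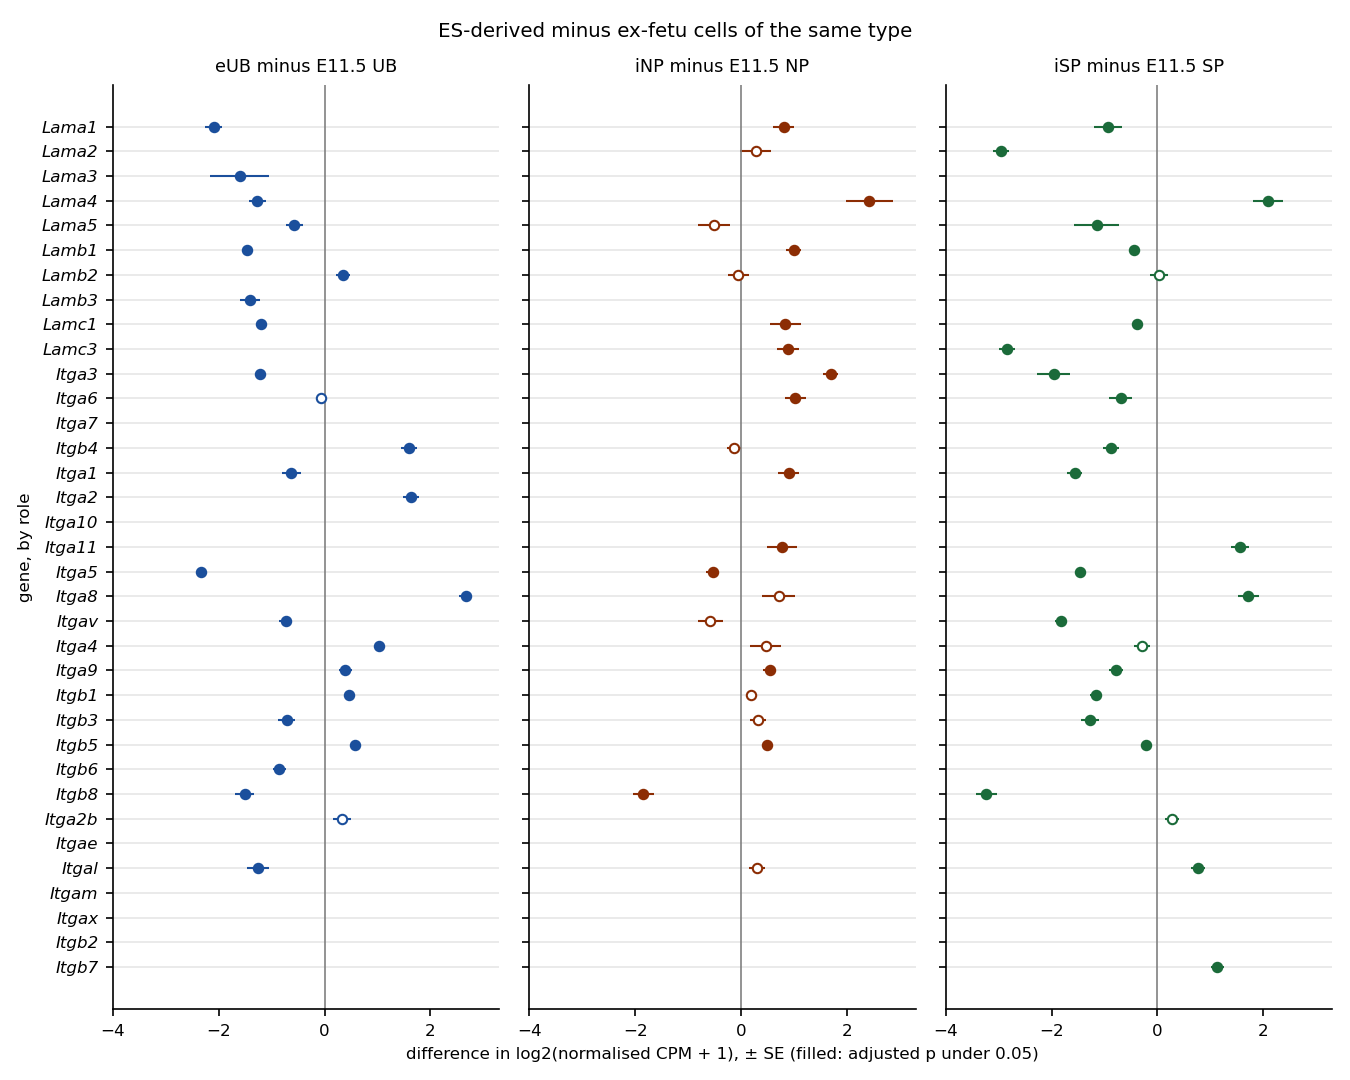
Difference of 35 members between ES-derived cells and E11.5 ex-fetu cells of the same type, in log2(normalised CPM + 1) with its SE, for UB, NP and SP. Filled points were called (limma, adjusted p under 0.05), open points were not, and members without a point were not tested. *Itgb8* lies left of 0 in all 3 panels, and *Itga3*, *Lamb1*, *Lamc1* and *Lama1* lie left in UB and SP and right in NP.

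Stromal progenitors derived from ES cells had less RNA of the stromal laminin chains and of most integrin chains than ex-fetu ones, with *Lama4*, *Itga8* and *Itga11* as exceptions, as well as *Itgb7* and *Itgal*, which reached 1 in iSP but in no E11.5 SP library. Between iSP and E11.5 SP, 22 of the 26 members that passed the filter were called, 5 higher and 17 lower in iSP, beside 67.6% of all genes tested (35.5% higher and 32.1% lower). The median log2 difference of the 17 integrin chains tested was -0.78, beside 0.0370 over all 13916 genes. *Lama2* was at 11.5, 12.3, 10.6 and 13.8 in iSP, 8.43-fold lower than in E11.5 SP (-2.96 ± 0.15, adjusted p = 3.2e-07). *Lamc3* was at 1.11, 1.86, 1.48 and 1.15, 11.6-fold lower (-2.84 ± 0.15, adjusted p = 4.0e-07). These 2 stromal chains did not overlap with any ex-fetu SP library of either stage. *Lama5*, at 17.97, 20.1, 19.6 and 13.6, overlapped with E11.5 SP library 4 (-1.14 ± 0.42, adjusted p = 0.037), and its call was lost when any 1 of the other 7 libraries was left out (adjusted p = 0.058 to 0.097) and with upper-quartile scaling (adjusted p = 0.054). Without that library its log2 difference was -1.63 ± 0.19 (adjusted p = 3.6e-05) and 21 members were called. *Lama4* was at 81.3, 103, 101 and 84.8 in iSP and 13.7, 15.6, 21.2 and 41.2 in E11.5 SP (2.09 ± 0.29, adjusted p = 0.00015), but at 103, 148, 121 and 163 in E12.5 SP, from which iSP was lower (-0.51 ± 0.15, adjusted p = 0.015, or 0.29 with all 36 libraries in 1 fit). The endothelial markers summed to 44.5 to 71.6 in iSP, 16.1 to 49.3 in E11.5 SP and 20.6 to 29.3 in E12.5 SP libraries, and their part in the *Lama4* values was not tested.

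The largest difference of a member between iSP and E11.5 SP was that of *Itgb8*, at 1.79, 3.22, 2.88 and 3.24 in iSP and 38.7, 46.1, 27.7 and 27.3 in E11.5 SP (-3.23 ± 0.20, adjusted p = 1.2e-06). Its partner chain *Itgav* was at 121, 126, 123 and 124 against 402, 384, 437 and 548 (-1.82 ± 0.11, adjusted p = 9.0e-07). *Itga5* was at 116, 119, 118 and 117 against 309, 344, 315 and 339 (-1.47 ± 0.07, adjusted p = 2.2e-07). These chains of the RGD receptors were lower in every iSP library than in every ex-fetu SP library of that stage. *Itgb1* was at 336, 332, 333 and 342 against 749, 641, 766 and 889 (-1.17 ± 0.10, adjusted p = 7.5e-06) and *Itgb3*, which passed the filter through E11.5 SP alone, at 0.725, 0.824, 0.517 and 0.372 against 1.97, 2.55, 3.93 and 3.36. *Itga1* was at 2.71, 4.26, 3.62 and 3.65 against 11.5, 11.1, 12.7 and 14.6 (-1.57 ± 0.14, adjusted p = 8.6e-06), while *Itga11*, the other mesenchymal collagen receptor chain, was at 5.17, 5.73, 6.02 and 5.88 against 1.802, 1.85, 0.953 and 0.702 (1.56 ± 0.18, adjusted p = 4.3e-05). Both pairs of groups kept apart. *Itga3* was at 6.38, 6.38, 6.87 and 3.78 in iSP (-1.96 ± 0.32, adjusted p = 0.00043). The UB markers moved with it: they summed to 334, 275, 283 and 146 in E11.5 SP libraries 1 to 4 (10 of 10 with a mean of at least 1) and to 90.1 to 102 in iSP (8 of 10). The library lowest in them, E11.5 SP library 4, was also the lowest of its group in *Itga3*, *Lama1* and *Lama5*, and their part in the differences of these chains was not tested.

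*Itga8* was 3.27-fold higher in iSP than in E11.5 SP (1.72 ± 0.20, adjusted p = 5.5e-05), both being sorted as ITGA8 low. *Itgb7*, a chain of lymphocyte integrins, was at 2.46, 1.86, 1.77 and 1.96 against 0.434, 0.486, 0.278 and 0.286, so that it passed the filter through iSP alone and no test is given, while the 9 macrophage markers summed to 2.22 to 3.32 in iSP and 4.32 to 8.97 in E11.5 SP. Against E12.5 SP, 19 of the 26 members that passed the filter were called, 4 higher and 15 lower in iSP, beside 62.1% of all genes tested (33.3% higher and 28.8% lower). *Lama2* (-2.55 ± 0.15, adjusted p = 8.6e-07), *Lamc3* (-2.43 ± 0.17, adjusted p = 2.4e-06), *Itgb8* (-2.47 ± 0.17, adjusted p = 2.4e-06) and *Itgav* (-1.66 ± 0.28, adjusted p = 0.00072) were lower there too. Without E12.5 SP library 1, 19 members were called.

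**Figure D4:**
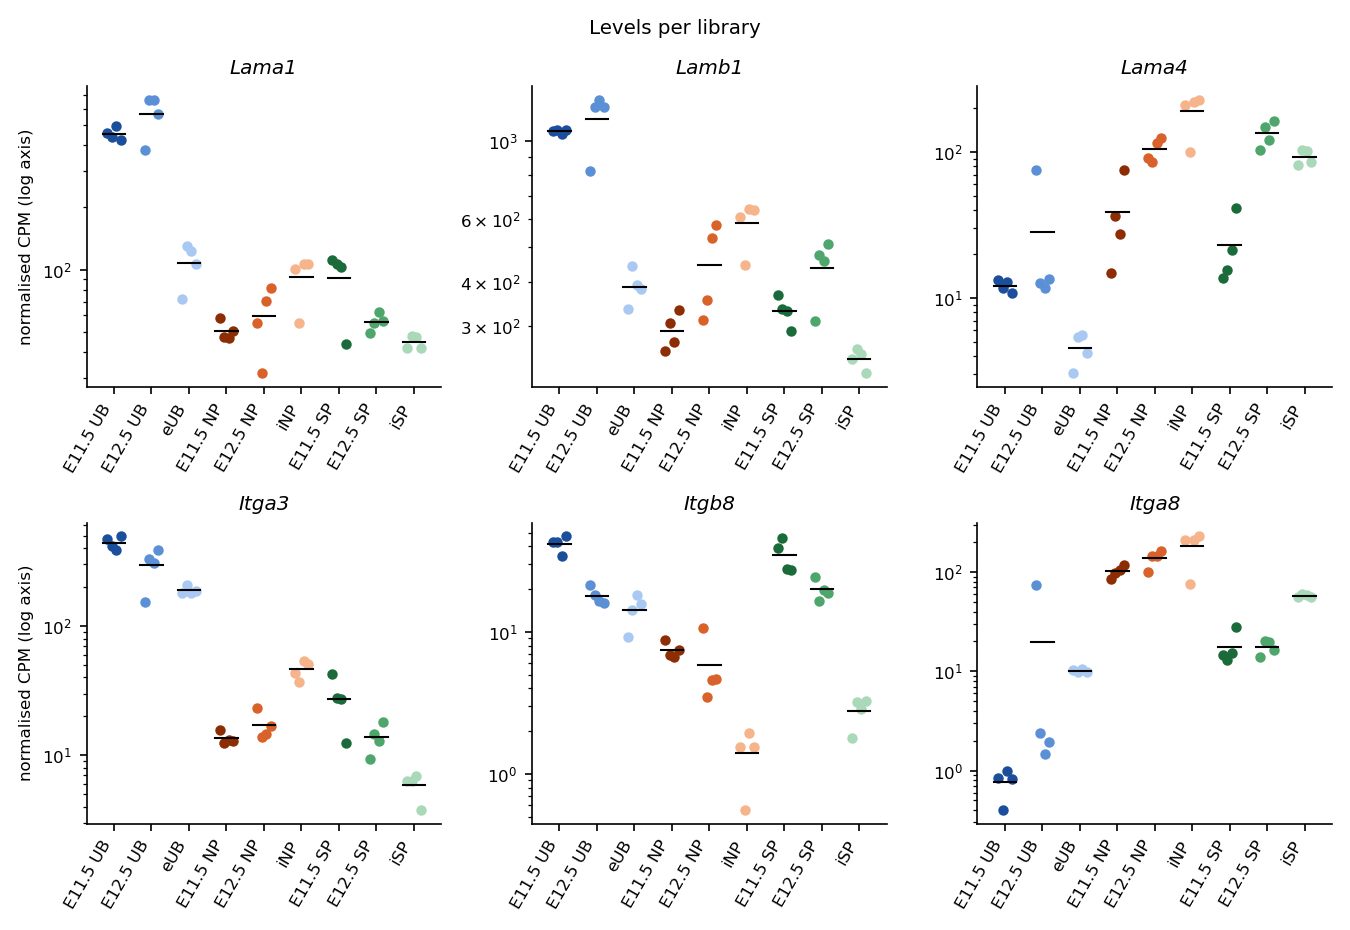
Levels of *Lama1*, *Lamb1*, *Lama4*, *Itga3*, *Itgb8* and *Itga8* in every library (normalised CPM, log axis), with 4 points and their mean as a line for each of the 9 groups. *Itgb8* is lower in each ES-derived group than in the E11.5 group of its type, *Lama4* is lower in eUB and higher in iNP and iSP, and E12.5 UB library 1 lies far above its group for *Itga8* and *Lama4*.

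The difference between ES-derived and E11.5 cells was itself compared between types, in a fit of 16 libraries with an interaction term. Between UB and NP, 18 of the 29 members that passed the filter were called, with a difference of ES-derived cells that lay further up in UB for 4 and further down for 14, beside 47.1% of all genes tested (22.3% higher and 24.9% lower). Between UB and SP, 24 of the 31 members that passed the filter were called, with a difference of ES-derived cells that lay further up in UB for 13 and further down for 11, beside 47.4% of all genes tested (24.2% higher and 23.3% lower). Between NP and SP, 19 of the 28 members that passed the filter were called, with a difference of ES-derived cells that lay further up in NP for 18 and further down for 1, beside 29.3% of all genes tested (17.4% higher and 11.9% lower). With quantile normalisation the share of all genes called that lay further up in NP was 47.4%, against 59.5%. In the first pair, 6 of the members named here had been called in opposite directions and differed by this test: *Lama1*, *Lama4*, *Lamb1*, *Lamc1*, *Itga3* and *Itga1*, all lower in eUB and higher in iNP. The difference of differences was -2.91 ± 0.16 (adjusted p = 7.9e-10) for *Itga3* and -2.46 ± 0.17 (adjusted p = 9.2e-09) for *Lamb1*. *Lama4* was lower in eUB and higher in iSP (-3.36 ± 0.35, adjusted p = 1.0e-06), and *Itgb1* (1.63 ± 0.12, adjusted p = 2.7e-08) and *Itgb4* (2.48 ± 0.22) were higher in eUB and lower in iSP, where *Itgb4* stayed under 1 and passed the filter through E11.5 SP alone. *Itgb8* and *Itga5* were called as lower than at E11.5 in all 3 types. Against E12.5 NP *Itga5* was not called, at means of 82.5 ± 10.5 in iNP and 83.8 ± 7.52 in E12.5 NP. *Itgb8* was not called against E12.5 UB.

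Promoter sequence is shown for 3 members that stand for the patterns above: *Lama5*, ordered UB, NP, SP, *Itga5*, lower in all 3 ES-derived groups than at E11.5, and *Itga8*, the sort marker. RefSeq promoter windows (GRCm38.p6) were used for 23 of the 36 members. None was found for *Itga6*, *Itga7*, *Itgae*, *Itgal*, *Itgb2*, *Itgb3*, *Itgb4*, *Lama1*, *Lama4*, *Lamc1* and *Lamc3*, among others. Whether *Lama3* has such a window was not tested. The 150 bases before the RefSeq start are printed 5′ to 3′ on the strand of the gene, with capitals for matches to GGGCGG (the GC box) on either strand.
Lama5 (chr2:180225860-180226009, minus strand): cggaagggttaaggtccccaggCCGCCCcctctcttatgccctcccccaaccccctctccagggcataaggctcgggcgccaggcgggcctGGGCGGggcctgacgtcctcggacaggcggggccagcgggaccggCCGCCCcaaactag
Itga5 (chr15:103366792-103366941, minus strand): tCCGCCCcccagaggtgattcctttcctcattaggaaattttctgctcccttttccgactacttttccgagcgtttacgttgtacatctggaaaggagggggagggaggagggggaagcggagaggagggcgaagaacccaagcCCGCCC
Itga8 (chr2:12301945-12302094, minus strand): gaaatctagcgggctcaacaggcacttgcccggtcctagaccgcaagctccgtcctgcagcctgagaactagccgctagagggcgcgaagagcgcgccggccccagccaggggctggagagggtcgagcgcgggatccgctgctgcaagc

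*Lama5* had 3 matches to GGGCGG and *Itga5* 2, and *Itga8* had 0. Of all 32851 windows of the same length, 28.6% held GGGCGG. None of the 3 held CCAAT (24.5% of all windows), TATAAA (7.57%) or TGANTCA, the AP-1 site (4.24%), on either strand. No motif overlapped with another in these windows, and a match describes letters, not a bound site.

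The counts of members called between E11.5 and E12.5 in ex-fetu cells moved when single libraries were left out. In NP and SP, few members were called, and few of all genes tested. In NP, 2 of the 23 members that passed the filter were called, 1 higher and 1 lower at E12.5, beside 6.34% of all genes tested (2.74% higher and 3.59% lower). They were *Lama4*, higher at E12.5 (1.62 ± 0.40, adjusted p = 0.043), and *Itga5*, lower (-0.51 ± 0.12, adjusted p = 0.036). No member was called without E11.5 NP library 1, 2 or 3 or E12.5 NP library 3 or 4, 1 was without E11.5 NP library 4, and 7 were without E12.5 NP library 1. In the fits with no call, 5 to 7 members had an unadjusted p under 0.05 (limma). In SP, 5 of the 27 members that passed the filter were called, 4 higher and 1 lower at E12.5, beside 8.52% of all genes tested (3.73% higher and 4.80% lower). *Lama4* was 5.84-fold higher (2.60 ± 0.31, adjusted p = 0.0023), *Lamc1*, *Itga9* and *Itga4* were higher, and *Itgb8* was lower (-0.76 ± 0.20, adjusted p = 0.043). The count was 8 without E11.5 SP library 4, with *Lama1* (-0.93 ± 0.12, adjusted p = 0.0026), *Lama5* (-1.25 ± 0.21, adjusted p = 0.0091) and *Itga3* among those then lower at E12.5 (the UB markers, whose part was not tested, summed to 334, 275, 283 and 146 in the E11.5 libraries and 92.0 to 125 in the E12.5 ones), and 8 without E12.5 SP library 1. The lowest count, 1, came without E11.5 SP library 1, 2 or 3 or E12.5 SP library 3 or 4, and 2 members were called without E12.5 SP library 2.

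In UB, where the labels disagree on the stage, 5 of the 26 members that passed the filter were called, 2 higher and 3 lower at E12.5, beside 26.5% of all genes tested (14.2% higher and 12.3% lower). *Itgb8* (-1.17 ± 0.12, adjusted p = 0.00055), *Itga5* (-0.89 ± 0.11, adjusted p = 0.00083) and *Lamb3* were lower in the samples titled E12.5, and *Itgb5* (0.76 ± 0.10, adjusted p = 0.0012) and *Lamc1* (0.49 ± 0.14, adjusted p = 0.03) higher. The call for *Lamc1* was lost when any 1 library other than E12.5 UB library 1 was left out (adjusted p = 0.061 to 0.084). Without E12.5 UB library 1 the count was 13, which cannot be set beside the 26.5%, a share of the fit with all libraries. Among others, *Lama1* (0.47 ± 0.07, adjusted p = 0.00019), *Lama5* (0.62 ± 0.07, adjusted p = 2.2e-05), *Lamb1* (0.25 ± 0.05, adjusted p = 0.0018), *Lamb2* and *Itga2b* were then higher at E12.5 as well, and *Itga3* (-0.37 ± 0.09, adjusted p = 0.0067) and *Itgb1* lower as well. *Lama5* was at 491, 1047, 1093 and 1048 in the 4 E12.5 UB libraries, of which the first alone was under the E11.5 range.

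At E12.5 the types differed as follows. Between UB and NP, 20 of the 29 members that passed the filter were called, 15 higher and 5 lower in UB, beside 32.7% of all genes tested (18.4% higher and 14.3% lower). Between UB and SP, 19 of the 30 members that passed the filter were called, 12 higher and 7 lower in UB, beside 46.4% of all genes tested (24.6% higher and 21.8% lower). Between NP and SP, 14 of the 25 members that passed the filter were called, 4 higher and 10 lower in NP, beside 34.8% of all genes tested (17.0% higher and 17.8% lower). In that pair, where the replicate numbers paired the samples, 19 members were called with the number as a block. The 34.8% belongs to the fit without the block. Without UB library 2 or 4 the first count was 13. Without UB library 1 the first 2 counts were 17 and 18, and without SP library 1 the last 2 were 19 and 13. Some members passed the filter only through the group where they were high, among them *Lamb3* and *Itgal* in the comparisons with UB. This held for *Itga2* between UB and NP and for *Itgb3* in the comparisons with NP as well, and their differences are a description. Quantile normalisation moved the median of all genes between UB and NP to -0.126, with 44.7% of all genes called higher in UB against 56.3%. *Lama2* was at 56.01, 86.5, 79.4 and 83.7 in SP, a log2 difference of -5.12 ± 0.49 (adjusted p = 3.3e-05) from UB to SP, or -5.69 ± 0.19 without UB library 1. *Itga8*, described above, was not called between UB and SP (-1.50 ± 0.97, adjusted p = 0.24) but was without UB library 1 (-2.67 ± 0.17, adjusted p = 3.8e-06).

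Among ES-derived cells, 25 of 29 members tested were called (15 higher and 10 lower in eUB, beside 52.2% of all genes, 25.8% higher and 26.3% lower) between eUB and iNP, 28 of 30 members tested were called (17 higher and 11 lower in eUB, beside 64.7% of all genes, 32.0% higher and 32.7% lower) between eUB and iSP, and 19 of 27 members tested were called (14 higher and 5 lower in iNP, beside 30.7% of all genes, 16.5% higher and 14.2% lower) between iNP and iSP. Without eUB library 1, the first 2 counts were 21 and 22. Without iNP library 2, the counts with iNP were 24 and 19. Some members stayed under 1 in every library of 1 group and passed the filter only through the other, so that they had to differ. In both comparisons with eUB these were *Itga2*, *Itga11*, *Itgal*, *Lama3*, *Lamb3* and *Lamc3*, among others. Against iSP, *Itgb3*, *Itgb4* and *Itgb7* were such members of the eUB comparison too, and *Itgb3* and *Itgb4* of the iNP one. Their differences are a description. *Itga3* was highest in eUB, with a log2 difference of 4.81 ± 0.15 (adjusted p = 3.3e-09) from iSP, as was *Itgb4* (4.74 ± 0.16). *Lama4* was lower in eUB than in iNP (-5.06 ± 0.27, adjusted p = 3.4e-07). *Lamb1* was lower in eUB than in iNP as well (-0.58 ± 0.15, adjusted p = 0.0082), whereas at E11.5 it was higher in UB than in NP. *Lama1* was not called between eUB and iNP (0.24 ± 0.25, adjusted p = 0.46).

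The leukocyte and platelet chains were low everywhere. *Itgb2*, the common beta chain of leukocyte integrins, was at 1.65, 0.925, 1.13 and 1.64 in E11.5 UB and at most 0.142 in eUB, and reached 1 in no library of another group. *Itgal* was at 2.91, 1.45, 1.78 and 3.77 in E11.5 UB and 0.223, 0.355, 0.472 and 0.567 in eUB, where no library reached 1, and *Itgam* reached at most 0.9601. The 9 macrophage markers, *Csf1r* and *C1qa* among them, all had a mean of at least 1 in E11.5 UB libraries, where they summed to 66.7 to 113, and 1 did in eUB libraries, where they summed to 2.005 to 5.45. Their part in the *Itgal* and *Itgb2* values was not tested. *Itgam* shares 68.7% of its exon bases with the gene model *Gm49368* on the same strand, and *Itga10* shares 33.5% with *Gm42957*, so that their reads are uncertain. *Itgax* and *Itgae* stayed under 1 in every library, *Itga2b* reached at most 2.88, and *Itga10* and *Itga7* at most 3.85 and 3.36.

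Other genes of the same pathway were counted in 4 lists. Over all genes tested, the shares to set beside these counts were 60.5% called (32.1% higher and 28.5% lower) in eUB, 64.7% called (35.5% higher and 29.2% lower) in iNP and 67.6% called (35.5% higher and 32.1% lower) in iSP. Of the basement membrane genes tested, 7 of 9 were higher and 0 lower in iNP than in E11.5 NP, with a median log2 difference of 0.84. In eUB 1 was higher and 3 lower of 9 (median -0.15), and in iSP 2 higher and 3 lower of 9 (median -0.13). *Nid2*, which encodes the laminin linker nidogen-2, was higher in all 3 ES-derived groups, by 1.91 ± 0.09 (adjusted p = 1.9e-07) in eUB, 3.46 ± 0.30 (adjusted p = 7.5e-06) in iNP and 1.35 ± 0.12 (adjusted p = 7.4e-06) in iSP, whereas *Nid1* was lower in eUB (-0.98 ± 0.12, adjusted p = 9.4e-05) and *Col18a1*, collagen XVIII, in iSP (-0.83 ± 0.30, adjusted p = 0.034).

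Of the integrin ligands, 4 were higher and 5 lower of 9 in eUB, 6 and 2 of 10 in iNP, and 1 and 5 of 9 in iSP, beside 60.5%, 64.7% and 67.6% of all genes called. *Egfl6*, a basement membrane ligand of α8β1, was at a mean of 94.7 ± 8.30 in eUB and 9.39 ± 0.684 in E11.5 UB (3.20 ± 0.09, adjusted p = 1.0e-08). *Npnt* was lower in iNP (-2.56 ± 0.21, adjusted p = 5.8e-06) and iSP (-2.42 ± 0.37, adjusted p = 0.00027), and *Tnc*, tenascin-C, was lower in iSP (-3.34 ± 0.26, adjusted p = 4.5e-06).

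Of the adhesion complex genes, which link integrins to actin, 6 of 14 tested were lower in iSP and 2 higher, or 57.1% called beside 67.6% of all genes. They included vinculin (*Vcl*, -1.54 ± 0.16, adjusted p = 2.0e-05), kindlin-2 (*Fermt2*, -1.56 ± 0.11, adjusted p = 2.8e-06) and the Cas adaptor (*Bcar1*, -1.72 ± 0.16, adjusted p = 1.2e-05). In eUB 9 of 16 were lower and 2 higher, and in iNP 4 and 3 of 14 (68.8% called beside 60.5% of all genes, and 50.0% beside 64.7%). Of the lower ones in eUB, *Parvg* (-2.22 ± 0.14) and *Fermt3* (-1.82 ± 0.29, adjusted p = 0.00046) are known from blood cells, and the macrophage markers moved with them, whose part was not tested. Of the 5 other laminin receptors, 2 were lower and 0 higher in eUB, 1 lower and 2 higher in iNP, and 2 lower and 1 higher in iSP, with the same shares of all genes beside them. The syndecan *Sdc4* was lower in each of the ES-derived groups, with log2 differences of -1.04 ± 0.09 (adjusted p = 5.8e-06) in eUB, -1.33 ± 0.13 (adjusted p = 1.4e-05) in iNP and -0.75 ± 0.09 (adjusted p = 6.4e-05) in iSP.

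*Lama3* was uneven among the libraries of the ex-fetu groups. At E11.5 it was at 0.896, 0.201, 0.384 and 32.8 in NP libraries 1 to 4, 0.634, 0.875, 0.675 and 13.7 in SP and 22.02, 6.63, 3.78 and 27.98 in UB. At E12.5 the values were 0.462, 10.8, 1.97 and 1.47 in NP, 0.379, 16.8, 1.29 and 0.551 in SP and 0.737, 35.8, 2.605 and 5.22 in UB. The highest library bore the number 4 in every type at E11.5 and the number 2 in every type at E12.5. In ES-derived cells it was at 0.387, 0.0328, 0.264 and 0.319 in iNP, 0.0483, 0.143, 0.185 and 0.0338 in iSP and 1.26, 2.73, 4.47 and 5.13 in eUB, with no library of that height.

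**Figure D5:**
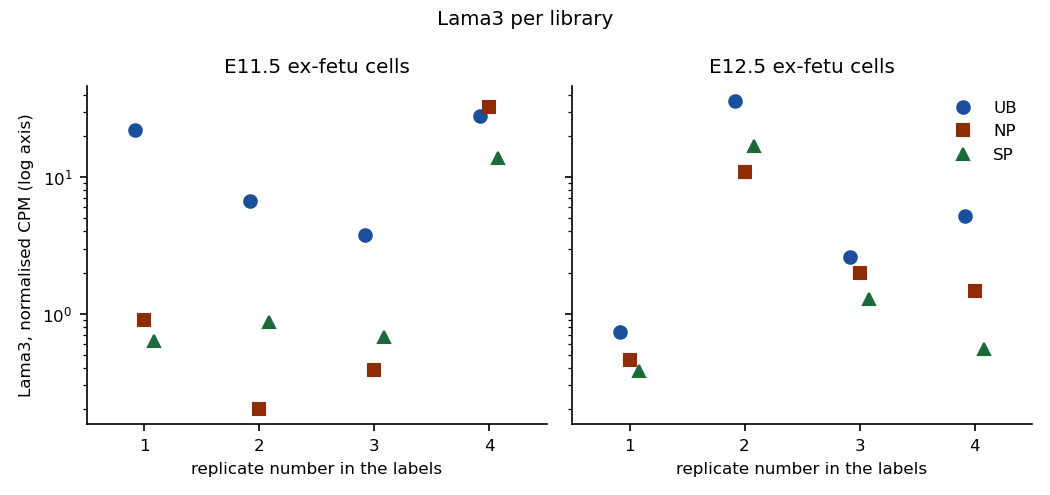
Level of *Lama3* in each ex-fetu library (normalised CPM, log axis) against the replicate number in the labels, at E11.5 (left) and E12.5 (right), with UB as circles, NP as squares and SP as triangles. Number 4 at E11.5 and number 2 at E12.5 hold the highest point of each type, and number 1 at E11.5 a further high UB point, at 22.02.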

How the data were processed

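RNA of sorted cells from 36 samples was sequenced (stranded mRNA kit, NovaSeq). Per the study's methods, the authors used Cutadapt for trimming, STAR for alignment and edgeR for normalisation. The deposited signal values are CPM scaled with factors from edgeR. Methods and labels write GRCh38 although the gene identifiers are mouse. The counting program and its use of strand are not given in the sources used here. All values were whole multiples of 1 read (100% within 0.001), so reads could be recovered (13.0 to 52.5 M a library). A second table repeats the values with the authors' means, fold changes, p-values and FDR, none of which were used.

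Gene positions and exon lengths came from GENCODE vM21. Differences were tested with limma 3.58.1 (R 4.3.3) with an intensity trend on log2(value + 1), over genes at 1 or more in at least 4 of the 8 libraries compared (16 for interactions), with Benjamini-Hochberg adjustment over all of them and a threshold of 0.05. The alternatives included edgeR 4.0.16 on recovered reads. The scripts were tested on simulated data. Libraries of a group came from separate mice or differentiation batches. Replicate numbers were checked for pairing, which held for E12.5 NP and SP alone (correlations of deviations 0.543 to 0.700). Values were given per library for members called at a log2 size of 1 or more between ES-derived and E11.5 cells, and for the 6 with the largest differences between E11.5 UB and NP or SP. Of the members, 1 is counted but not reported here. Members, lists and tests were chosen with earlier results of these data known. In Python 3.11.15, promoter windows were searched for motifs on both strands.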

Additional observations from a re-analysis of the deposited data

Results flagged for a closer look

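A library was marked as far from the others of its group by Dixon's test (95% critical value for 4 libraries) for 39 of the 234 pairs of a group and a member reported here in which the member reached 1. By chance about 1 in 20 groups are marked. The values below are in normalised CPM, with the range of the 3 other libraries of the group in parentheses.

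E12.5 UB library 1 had high levels of *Itga8* at 73.7 (others 1.46 to 2.37), *Itga9* at 64.4 (others 5.11 to 7.49), *Itga11* at 2.25 (others 0.284 to 0.338), *Lama2* at 6.14 (others 0.274 to 0.724), *Lama4* at 75.8 (others 11.7 to 13.5), *Lamc3* at 4.26 (others 0.229 to 0.483) and *Itga7* at 1.15 (others 0.241 to 0.3199). Its low levels were *Lama5* at 491 (others 1047 to 1093), *Lamb1* at 819 (others 1248 to 1306), *Lamc1* at 855 (others 1299 to 1340) and *Itgb4* at 7.04 (others 13.9 to 15.1). Only low levels were marked in iNP library 2, namely *Itga8* at 75.5 (others 209.8 to 230.1), *Itgav* at 59.9 (others 129 to 134), *Lama1* at 55.3 (others 101 to 107), *Lama4* at 101 (others 211 to 228), *Lamb1* at 445 (others 609.6 to 642) and *Itga6* at 46.4 (others 81.4 to 84.3).

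High levels in E11.5 NP library 1 were *Itga5* at 143 (others 111 to 113), *Itga9* at 132 (others 119 to 120.0), *Lama5* at 196 (others 104 to 118), *Lamb2* at 106 (others 61.2 to 65.8) and *Itgb4* at 3.08 (others 2.004 to 2.05). E12.5 SP library 1 had high levels of *Itga7* at 3.36 (others 0.669 to 1.101) and *Itgb4* at 2.004 (others 0.688 to 0.861). Its low levels were *Itga9* at 248 (others 379 to 399) and *Itga2* at 0.379 (others 1.21 to 1.24). E11.5 SP library 4 had high levels of *Itga8* at 28.1 (others 13.03 to 15.3) and *Lama3* at 13.7 (others 0.634 to 0.875). Its low levels were *Lama1* at 43.8 (others 102 to 112).

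Single libraries were marked for *Itga4* in eUB library 3 at 27.1 (others 23.8 to 24.1), *Lama2* in eUB library 1 at 0.297 (others 1.07 to 1.21), *Lama3* in E11.5 NP library 4 at 32.8 (others 0.201 to 0.896), *Lama3* in E12.5 NP library 2 at 10.8 (others 0.462 to 1.97), *Lama3* in E12.5 SP library 2 at 16.8 (others 0.379 to 1.29) and *Lama3* in E12.5 UB library 2 at 35.8 (others 0.737 to 5.22). The same test marked *Lamb2* in eUB library 1 at 83.6 (others 121 to 127), *Itga3* in iSP library 4 at 3.78 (others 6.38 to 6.87), *Itga7* in E12.5 NP library 1 at 2.801 (others 0.334 to 0.453) and *Itgb1* in E11.5 NP library 2 at 388 (others 399.8 to 401).

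The log2 difference of ES-derived from E11.5 ex-fetu cells pointed in opposite directions in 2 types for some members, and the difference between the types was itself tested with limma's interaction term over 16 libraries. Between UB and NP, 18 members differed by this test, and 6 of those reported here had been called in opposite directions. Their difference of differences was -3.70 ± 0.50 for *Lama4* (-1.27 in UB and 2.43 in NP, adjusted p = 1.7e-05), -2.91 ± 0.16 for *Itga3* (-1.22 in UB and 1.69 in NP, adjusted p = 7.9e-10), -2.91 ± 0.28 for *Lama1* (-2.10 in UB and 0.81 in NP, adjusted p = 3.4e-07), -2.46 ± 0.17 for *Lamb1* (-1.46 in UB and 0.99 in NP, adjusted p = 9.2e-09), -2.05 ± 0.34 for *Lamc1* (-1.20 in UB and 0.84 in NP, adjusted p = 0.00011) and -1.53 ± 0.29 for *Itga1* (-0.63 in UB and 0.90 in NP, adjusted p = 0.00037).

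Between UB and SP, 24 members differed by this test, and 6 of those reported here had been called in opposite directions. Their difference of differences was -3.36 ± 0.35 for *Lama4* (-1.27 in UB and 2.09 in SP, adjusted p = 1.0e-06), -2.03 ± 0.25 for *Itgal* (-1.26 in UB and 0.77 in SP), 0.79 ± 0.12 for *Itgb5* (0.58 in UB and -0.21 in SP, adjusted p = 4.1e-05), 1.18 ± 0.18 for *Itga9* (0.40 in UB and -0.78 in SP, adjusted p = 5.0e-05), 1.63 ± 0.12 for *Itgb1* (0.46 in UB and -1.17 in SP, adjusted p = 2.7e-08) and 2.48 ± 0.22 for *Itgb4* (1.60 in UB and -0.88 in SP). Between NP and SP, 19 members differed by this test, and 9 of those reported here had been called in opposite directions. Their difference of differences was 0.70 ± 0.10 for *Itgb5* (0.49 in NP and -0.21 in SP, adjusted p = 4.1e-05), 1.22 ± 0.33 for *Lamc1* (0.84 in NP and -0.38 in SP, adjusted p = 0.011), 1.32 ± 0.19 for *Itga9* (0.54 in NP and -0.78 in SP, adjusted p = 4.4e-05), 1.44 ± 0.17 for *Lamb1* (0.99 in NP and -0.44 in SP, adjusted p = 9.1e-06), 1.72 ± 0.31 for *Itga6* (1.03 in NP and -0.69 in SP, adjusted p = 0.00041), 1.74 ± 0.36 for *Lama1* (0.81 in NP and -0.93 in SP, adjusted p = 0.0014), 2.47 ± 0.26 for *Itga1* (0.90 in NP and -1.57 in SP, adjusted p = 2.0e-06), 3.66 ± 0.37 for *Itga3* (1.69 in NP and -1.96 in SP, adjusted p = 1.5e-06) and 3.72 ± 0.27 for *Lamc3* (0.88 in NP and -2.84 in SP, adjusted p = 4.0e-08).

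*Itgal* stayed under 1 in every eUB and E11.5 SP library and passed the filter in each comparison only through the other group, and *Itgb4* stayed under 1 in every iSP library and passed the filter in SP only through E11.5 SP, so that both are a description, with no test. Some of these calls of opposite direction were not stable. That of *Itgb5* in SP was lost with quantile normalisation (-0.01, adjusted p = 0.91), upper-quartile scaling (-0.07, adjusted p = 0.43) and the replicate block (-0.21, adjusted p = 0.056), and without E11.5 SP library 3 or iSP library 2, 3 or 4 (adjusted p = 0.058 to 0.078). That of *Lamc1* was lost in NP without any 1 of 6 libraries (adjusted p = 0.056 to 0.091), and in SP with all 36 libraries in 1 fit (-0.38, adjusted p = 0.13) and quantile normalisation (-0.14, adjusted p = 0.17). With all 36 libraries in 1 fit, that of *Itga9* was lost in UB (0.40, adjusted p = 0.39), NP (0.54, adjusted p = 0.21) and SP (-0.78, adjusted p = 0.07), and with quantile normalisation it was lost in UB (0.20, adjusted p = 0.18) and that of *Lamc3* in NP (0.45, adjusted p = 0.073).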

How the results depend on the processing

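No call of a member reversed in direction under the alternatives it was run under. Of 367 single calls, all were run with quantile normalisation, a pseudocount of 0.1, edgeR's quasi-likelihood test on recovered reads and the replicate block. All but the 61 interaction calls, 306 in number, were run with all 36 libraries in 1 fit, upper-quartile scaling and no filter on low levels, and 243 with a filter at 5, under which fewer members were tested. Of the calls run, 23 were lost with all 36 libraries in 1 fit, 15 with edgeR, 16 with quantile and 5 with upper-quartile scaling, 12 without the filter, 2 with the filter at 5, 6 with the pseudocount of 0.1 and 10 with the replicate block. Of these settings, the counts of members called that moved by over 1.5 times were the following. Between iNP and E12.5 NP, 9 became 14 with upper-quartile scaling and 14 with the replicate block. Between E12.5 and E11.5 SP, 5 became 9 with all 36 libraries, 2 without the filter and 3 with the replicate block. Between E12.5 and E11.5 NP, 2 became 1 with quantile normalisation, without the filter, with the filter at 5, with edgeR and with the replicate block. Between eUB and iNP, 25 became 16 with the filter at 5. Otherwise the cause was not tested.

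Leaving out 1 library at a time gave 0 to 7 members called between the stages of NP (0 without E11.5 NP library 1, 2 or 3 or E12.5 NP library 3 or 4, with 5 to 7 members at an unadjusted limma p under 0.05), 1 to 8 of SP and 4 to 13 of UB, 13 to 20 between E12.5 UB and NP (13 without UB library 2 or 4), and 6 to 14 between iNP and E12.5 NP (6 without iNP library 1, 14 without library 2). It gave 21 to 24 between eUB and E11.5 UB, 12 to 19 between iNP and E11.5 NP and 18 to 21 between iSP and E11.5 SP. Replicate numbers paired the samples for E12.5 NP and SP alone, where the replicate block gave 19 members against 14. In the other comparisons not every correlation was over 0.1 and the labels name no shared animal, so that same-numbered samples were not taken as pairs, and the block gave 24 against 24 between eUB and E11.5 UB. Upper-quartile scaling moved the median log2 difference of all genes to 0.174 between iNP and E12.5 NP, 0.165 and 0.152 between iSP and the stages of SP, and -0.115 between eUB and iNP, and quantile normalisation to 0.102 between E12.5 NP and SP. Members under 1 in most libraries were not tested, so that nothing is said of differences in them.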

Other observations

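*Lama3* was high in the same-numbered libraries of different sorted types: E11.5 library 4 (32.8 in NP, 13.7 in SP, 27.98 in UB) and E12.5 library 2 (10.8, 16.8 and 35.8). *Itga7*, a laminin receptor chain of muscle, was highest in library 1 of each type at E12.5, at 2.801 in NP, 3.36 in SP and 1.15 in UB.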
